A study of Schizosaccharomyces pombe with 4 samples.

Results

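Fission yeast has 2 mating types that signal to each other with secreted peptides. The genes described here are 9 of the 5143 genes measured, chosen by gene identifier as the pheromone, export, receptor, protease and regulator genes that mark each mating type. The 6 M-specific genes are mfm1 (SPAPB8E5.05), mfm2 (SPAC513.03), mfm3 (SPBPJ4664.03), mam1 (SPBC25B2.02c), mam2 (SPAC11H11.04) and sxa2 (SPAC1296.03c). The 3 P-specific genes are map1 (SPAC11E3.06), map2 (SPCC1795.06) and map3 (SPAC3F10.10c). At 24°C, 5 of them fell and 1 rose by at least 0.8 on the log2 scale of FPKM + 1 in S. pombe fas S.j. cells compared with the wild type, and mfm2, with 100 FPKM in wild-type cells and 0.740 FPKM in fas S.j. cells, fell most.

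As background, M cells (h-) secrete M-factor, a farnesylated peptide encoded redundantly by mfm1, mfm2 and mfm3 and exported by the ABC transporter Mam1. P cells (h+) sense it with the receptor Map3. P cells secrete P-factor, cut from the precursor encoded by map2, and M cells sense it with the receptor Mam2 and destroy it with the carboxypeptidase Sxa2. The MADS-box protein Map1 controls transcription of P-specific genes. Nitrogen starvation induces Ste11, an HMG-box transcription factor that binds short boxes upstream of mating genes and drives the pathway in both cell types.

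The study made 4 poly(A) RNA-seq libraries, 1 for each strain and temperature. Wild type S. pombe was compared with S. pombe fas S.j., in which the open reading frames of both fatty acid synthase genes, fas1 and fas2, are exchanged for those of S. japonicus, with kanR and hygR as selection markers. Both strains were in exponential growth in YES, a rich medium, at 24°C or 30°C. With 1 library per condition, no difference below has a replicate check, and none was tested. The strain list of the study names an h- prototroph as the wild type. For fas S.j. without a tagged protein it names 2 strains, an h- strain with ura4-D18, ade6-216 and leu1-32 and an h+ prototroph, without saying which was sequenced. The ura4-D18 allele is a deletion of ura4, and ura4 had 139 FPKM in wild-type and 165 FPKM in fas S.j. cells at 24°C. Between these 2 strains, the ura4 value of the fas S.j. library at 24°C matched the h+ prototroph and not the ura4-D18 strain. This match rests on ura4 alone, and fas S.j. strains with a tagged protein that carry ura4+ are also listed. The genes of the mating types were not used for it. If the h+ prototroph was sequenced, an h- wild type was compared with an h+ fas S.j. strain. The fas replacement and the mating type then cannot be told apart for the M-specific and P-specific genes. Of the 6 M-specific genes 4 fell and 1 rose by at least 0.8 at 24°C, and of the 3 P-specific genes 1 fell and 0 rose. The mating type of the fas S.j. library was not tested. The ura4 gene has no value in the table used at 30°C. In bulk cultures, fewer cells expressing a gene and less RNA per cell can also not be told apart.

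FPKM is the number of fragments on a gene, scaled to the length of the gene and the size of the library, and it was normalized separately at each temperature. A change is log2((fas S.j. FPKM + 1)/(wild-type FPKM + 1)), a scale that understates the changes of genes with low FPKM. The table for 24°C covers all 5143 genes. The table for 30°C that was used has 285 genes, all lower in fas S.j., with log2 ratios of FPKM no higher than -0.50, so a member missing from it has no value at 30°C. The replaced genes matched the labels: at 24°C fas1 had 301 FPKM in the wild-type library and 7.35 in the mutant one, and fas2 had 336 and 0.320. At 24°C, low FPKM values lay on steps worth 1 read each. If FPKM was scaled to each library's own total, the steps put the wild-type library near 13300000 reads and the fas S.j. library near 10500000. The scaling used is not given in the sources used here, so these totals are conditional. The estimated reads and 95% Poisson intervals below rest on these steps, are approximate and cover counting error only.

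The 3 M-factor genes are printed first because they fell to different degrees although they encode 1 peptide. These are the spliced coding sequences from start to stop codon, read from the RefSeq assembly ASM294v3. Capitals mark the last 39 bases, which hold the 9 codons of the mature peptide, the 3 further codons of the signal for farnesylation and the stop codon.
mfm1: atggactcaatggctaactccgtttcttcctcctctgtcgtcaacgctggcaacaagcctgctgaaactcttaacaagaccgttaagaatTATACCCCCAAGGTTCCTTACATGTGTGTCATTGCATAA
mfm2: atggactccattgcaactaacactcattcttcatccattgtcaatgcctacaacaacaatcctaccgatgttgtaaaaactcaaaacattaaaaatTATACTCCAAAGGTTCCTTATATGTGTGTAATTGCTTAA
mfm3: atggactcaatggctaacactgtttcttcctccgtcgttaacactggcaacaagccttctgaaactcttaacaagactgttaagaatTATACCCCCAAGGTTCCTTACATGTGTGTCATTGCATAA
The coding part of mfm1 lies on the plus strand at chrI:4917099-4917298, that of mfm2 on the minus strand at chrI:2913008-2913184 and that of mfm3 on the plus strand at chrII:700364-700556. Each is split by 1 intron, of 71, 42 and 67 bases, which leaves the last 13 coding bases in the second exon. The capitals are identical in mfm1 and mfm3 and differ at 5 bases in mfm2, with no change in any of the 13 codons' meaning. Over the whole coding sequence mfm1 and mfm3 were 93.0% identical, while mfm2 was 68.1% identical to mfm1 and 70.6% to mfm3. No stretch of 50 bases in the spliced transcripts of mfm1, mfm2 or mfm3 occurred at more than 1 place in the genome. With 2 mismatches allowed, 39 of the 387 windows of 50 bases in mfm1 matched mfm3, and none matched mfm2.

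Of the pheromone genes, mfm2 had the largest fall among the members. Its level at 24°C was 100 FPKM in wild-type and 0.740 FPKM in fas S.j. cells, about 357 and 2 reads. The change of mfm2 was -5.86, the 3rd lowest change of 4943 genes, a ratio of wild type to fas S.j. of 140 from the estimated reads with a 95% counting interval from 38.5 to 1162. At 30°C mfm2 had 27.5 FPKM in wild-type and 1.31 FPKM in fas S.j. cells, a change of -3.63. In fas S.j. mfm2 was thus the lowest of the members with a value at either temperature, while in wild type only mfm3 was listed higher.

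The second M-factor gene, mfm1, had 23.6 FPKM in wild-type and 1.35 FPKM in fas S.j. cells at 24°C, about 204 and 9 reads. Its change was -3.39, the 8th lowest, and the ratio of estimated reads was 17.8 with an interval from 9.19 to 39.5. At 30°C mfm1 had 5.26 FPKM in wild-type and 1.78 FPKM in fas S.j. cells, a change of -1.17. What remained of mfm1 in fas S.j. was 5.71% of the wild-type FPKM at 24°C and 33.9% at 30°C, and both fas S.j. values were below 2 FPKM.

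The third gene, mfm3, had the highest listed FPKM of the 9 genes in both libraries at 24°C and of the 4 listed genes at 30°C. It had 823 FPKM in wild-type and 240 FPKM in fas S.j. cells at 24°C, a change of -1.77, and 431 and 188 FPKM at 30°C, a change of -1.19. In fas S.j. mfm3 thus kept 29.2% of its wild-type FPKM at 24°C and 43.7% at 30°C, whereas mfm2 kept 0.739% and 4.75%. The authors' model of mfm3 spans 193 bases with the intron and equals the coding part, shorter than the 200 bases taken off a gene's length when reads were estimated. Its FPKM is therefore not comparable with the levels of longer genes, and no reads were estimated, while the ratio between strains uses 1 length. In ASM294v3 a noncoding gene on the opposite strand, SPNCRNA.1381, covers all 337 bases of the annotated mfm3 gene.

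The gene for the M-factor exporter, mam1, fell together with the pheromone genes. It lies on the minus strand of chromosome II from 2596405 to 2600486 and had 33.1 FPKM in wild-type and 9.59 FPKM in fas S.j. cells, about 1711 and 390 reads. The change was -1.68, and the ratio of estimated reads was 3.45 with an interval from 3.08 to 3.86. In the authors' table mam1 shares its locus with hbs1 on the opposite strand, whose annotated end overlaps it by 48 bases and which had 48.0 and 45.8 FPKM in the 2 strains. In ASM294v3 a noncoding gene on the opposite strand, SPNCRNA.5728, overlaps mam1 by 3323 bases. Its part in the value of mam1 was not tested. The mam1 gene is not in the table used at 30°C.

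Of the genes with which M cells receive and clear P-factor, mam2 was lower by less than the limit and sxa2 was higher. The receptor gene mam2, on chromosome I from 4780688 to 4781922, had 43.2 FPKM in wild-type and 32.6 FPKM in fas S.j. cells, about 597 and 353 reads. The ratio of wild type to fas S.j. was 1.33 from the estimated reads with an interval from 1.16 to 1.52, which does not include 1. Its change of -0.40 was short of the limit of 0.8 and lay within the 5th to 95th percentile of all genes, -0.46 to 0.71. The protease gene sxa2, on chromosome I from 712217 to 714449, had 11.3 FPKM in wild-type and 23.9 FPKM in fas S.j. cells, about 307 and 509 reads. It was the member that rose past 0.8, by 1.02, with a ratio of fas S.j. to wild type of 2.11 from the estimated reads and an interval from 1.83 to 2.44. The end of sxa2 overlaps cox4 on the opposite strand by 138 bases, and cox4, which shares its locus, went from 352 to 250 FPKM. A noncoding gene on the same strand, SPNCRNA.2306, overlaps sxa2 by 363 bases, and SPNCRNA.2305 on the opposite strand overlaps it by 1427 bases. The part of these noncoding genes in the value of sxa2 was not tested.

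Of the P-specific genes, the regulator gene map1 fell and the genes for P-factor and the M-factor receptor did not. The map1 gene lies on chromosome I from 5292705 to 5294751 and is alone in its locus in the authors' table. In ASM294v3 the noncoding genes SPNCRNA.4385 and SPNCRNA.1067 on the opposite strand overlap it by 1309 and 564 bases. Their part in the value of map1 was not tested. The map1 gene had 11.0 FPKM in wild-type and 4.07 FPKM in fas S.j. cells at 24°C, about 227 and 66 reads, a change of -1.24. The ratio of estimated reads was 2.70 with an interval from 2.05 to 3.61. At 30°C map1 had 4.58 FPKM in wild-type and 1.72 FPKM in fas S.j. cells, a change of -1.04, so that 37.1% of the wild-type FPKM remained at 24°C and 37.4% at 30°C. Among the 4 members with values at both temperatures, map1 was the one with nearly the same share left at each.

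The P-factor gene map2, on the minus strand of chromosome III from 986014 to 986684, was barely expressed. It had 1.47 FPKM in wild-type and 2.26 FPKM in fas S.j. cells, about 9 and 11 reads, and the interval of the ratio of fas S.j. to wild type, from 0.586 to 4.25, includes no change. The precursor holds repeated copies of P-factor, and the longest exact repeat of its 606 coding bases is shown because reads inside it have more than 1 place within map2. It covers coding bases 151 to 221 and again 355 to 425.
map2 repeat: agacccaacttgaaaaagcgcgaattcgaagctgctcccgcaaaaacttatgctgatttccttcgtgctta
Of the windows of 50 bases in map2, 44 were repeated within the gene and none of 75 bases was. The study's methods give reads of 50 cycles and the sample records 75 bases, so whether such reads had 1 place depends on which holds.

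The M-factor receptor gene map3, on chromosome I from 2833231 to 2834988, had 3.79 FPKM in wild-type and 6.88 FPKM in fas S.j. cells, about 79 and 112 reads. Its change of 0.72 was just below the limit of 0.8, with a ratio of 1.81 from the estimated reads and an interval from 1.34 to 2.44. In ASM294v3 his6 on the opposite strand overlaps 1755 bases of map3, and it shares the locus with 73.2 and 76.6 FPKM. The study's methods call the libraries strand-specific, but whether strand was used in counting is not given in the sources used here, and the part of his6 in the value of map3 was not tested. The map2 and map3 genes are not in the table used at 30°C.

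**Figure D1:**
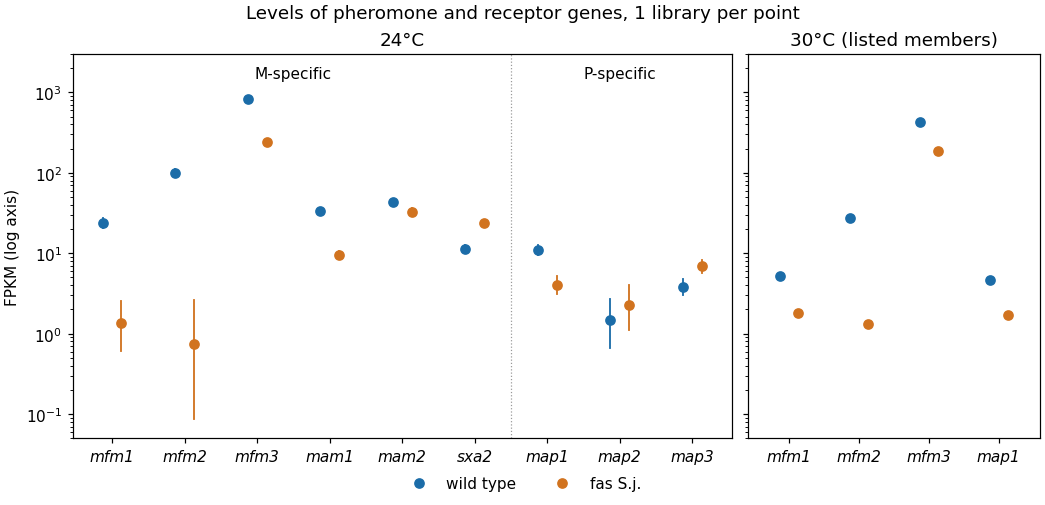
FPKM on a log axis for the 9 genes at 24°C and for the 4 genes listed at 30°C, with 1 point per library (blue, wild type; orange, fas S.j.) and lines for the 95% Poisson interval of the estimated reads at 24°C, which were not estimated for mfm3 or at 30°C. The points of mfm2 are furthest apart, 100 and 0.740 FPKM at 24°C, those of map2 have overlapping intervals, and fas S.j. lies above wild type for sxa2, map2 and map3.

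As a group, 4 of the 6 M-specific genes fell by at least 0.8 and 1 rose, with a median change of -1.73. Of the 3 P-specific genes 1 fell and none rose past that limit, with a median of 0.40. That median is the value of map2 alone, with about 9 and 11 reads. The interval of its ratio, from 0.586 to 4.25, includes no change. Among 4943 genes whose FPKM averaged at least 1 over both libraries, all 9 members included, 2.08% fell and 4.19% rose by at least 0.8, and the median change was -0.0037. The members' median was -1.24. Of the 9 members 4 are in the table used at 30°C, 3 of them M-specific, against 5.54% of all genes. All 4 had changes at or below -1.04 there, but every gene of that table is a fall, so this says only that they are listed. The 4 M-specific genes that fell past the limit are those for M-factor and its export, and the genes for receiving and degrading P-factor, mam2 and sxa2, had changes of -0.40 and 1.02.

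**Figure D2:**
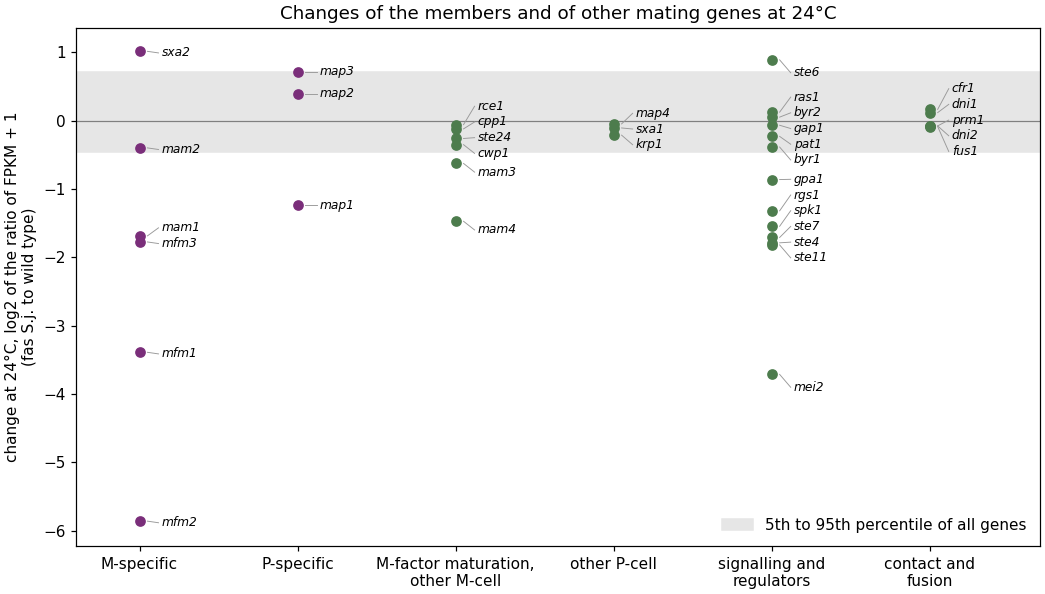
Change at 24°C, on the log2 scale of FPKM + 1, fas S.j. relative to wild type, for the members (purple) and other mating genes (green) whose FPKM averaged at least 1. The grey band is the 5th to 95th percentile of all genes, -0.46 to 0.71, and mfm1, mfm2, mfm3, mam1 and map1 lie below it while sxa2, at 1.02, and by little map3, at 0.72, lie above it.

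The order of the levels was not the same in both strains. In wild type at 24°C it was mfm3, mfm2, mam2, mam1, mfm1, sxa2, map1, map3 and map2, from 823 to 1.47 FPKM, where the place of mfm3 rests on its 193-base model and is not comparable with the others. The Poisson intervals of sxa2, 10.1 to 12.7 FPKM, and map1, 9.60 to 12.5 FPKM, overlapped, and those of the other neighbours with an interval did not. In fas S.j. the order was mfm3, with the same limit, mam2, sxa2, mam1, map3, map1, map2, mfm1 and mfm2, from 240 to 0.740 FPKM. There the intervals of map1 and map2 overlapped, as did those of map2 and mfm1 and of mfm1 and mfm2. By rank among 4943 genes, mfm2 went from 1097th to 4933rd and mfm1 from 3620th to 4914th, whereas mam2 went from 2401st to 3023rd. The median gene had 41.8 and 41.9 FPKM in the 2 strains, so the exporter gene mam1 and the receptor gene mam2 sat near the middle of the wild-type transcriptome and the P-specific genes near its lower end.

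Set side by side across temperatures, with the reservation that the tables were normalized separately, the listed members had lower values in wild type at 30°C than at 24°C. The ratio of wild-type FPKM at 30°C to that at 24°C was 0.223 for mfm1, 0.275 for mfm2, 0.523 for mfm3 and 0.418 for map1. Its median over the 283 listed genes with a value above 0 in wild type at 24°C was 1.17. In fas S.j. the same ratio was 1.32 for mfm1, 1.76 for mfm2, 0.784 for mfm3 and 0.421 for map1, and its median over the listed genes was 0.943. The listed genes are all lower in fas S.j. at 30°C, so both medians come from genes selected on the same 30°C values. They are not a baseline for all genes. The smaller change of mfm1 and mfm2 at 30°C thus went with lower wild-type values and higher fas S.j. values, the latter below 2 FPKM at both temperatures. The fas S.j. counting intervals at 24°C were 0.607 to 2.52 FPKM for mfm1 and 0.0866 to 2.58 FPKM for mfm2. They include the fas S.j. values at 30°C, 1.78 and 1.31 FPKM. Differences between the temperatures were not tested.

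Ste11 binds a box whose common letters include TTCTTTGTT, with CTTTGT as a core. Upstream of the start codon, in 500 bases on either strand, the core was found at all 9 members, against 36.5% of 5112 protein-coding genes, and at least 2 matches were found at 5 of the 9, against 8.10%. The longer TTCTTTGTT, which contains the core, was found at mfm1, mfm3 and map1, 3 of the 9, against 3.58%. The match nearest to each start codon is shown as 30 bases of the gene's own strand, because it is what the members share upstream, with the core or its reverse complement in capitals.
mfm1: tgggtccgaccaACAAAGaagtctcagttt
mfm2: ataggcaaatgaACAAAGagatcacagttt
mfm3: taggcccaaccaACAAAGaagtctcagatt
mam1: tacacaatgggcCTTTGTtaggtactctcc
mam2: tggaaattctaaACAAAGaggaattattgg
sxa2: ttcgctgggtgtCTTTGTtgcccatctcta
map1: ttacaatttgtaACAAAGaaacacacattt
map2: aaacggagcactACAAAGatgtataaatac
map3: ttctatataggtCTTTGTgtaccatttaat
In ASM294v3 these windows lie at chrI:4916925-4916954 for mfm1, chrI:2913310-2913339 for mfm2, chrII:700189-700218 for mfm3, chrII:2600536-2600565 for mam1, chrI:4780547-4780576 for mam2, chrI:714319-714348 for sxa2, chrI:5292720-5292749 for map1, chrIII:987033-987062 for map2 and chrI:2835048-2835077 for map3. The windows of mfm1 and mfm3 differ at 4 of 30 bases and their matches end 157 and 158 bases before the start codon, so the likeness of mfm1 and mfm3 extends upstream. The nearest match ended 138 bases before the start codon in mfm2, 113 in mam1 and 124 in mam2. It was closer in map1 and map3, at 58 and 72 bases, and farther in sxa2 and map2, at 317 and 361 bases. In map1 and sxa2, which have 1 core each, the window lies within the annotated gene. There the match is upstream of the start codon but not of the gene, which holds also for the longer match of map1. These are matches of letters and not measured binding. The 3 members with the longer match, mfm1, mfm3 and map1, all fell past 0.8, and mfm2 and mam1 fell without it. Of the 5 members with at least 2 cores, all but mam2 fell past 0.8, and of the 4 with 1 core map1 did. Of all 4943 genes 2.08% fell past 0.8, but the share among genes with these matches was not counted. The genes mfm1 and mfm3 are 93.0% identical in coding sequence and are not independent cases. This is a description of 9 genes, and a link between the matches and the falls was not tested.

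**Figure D3:**
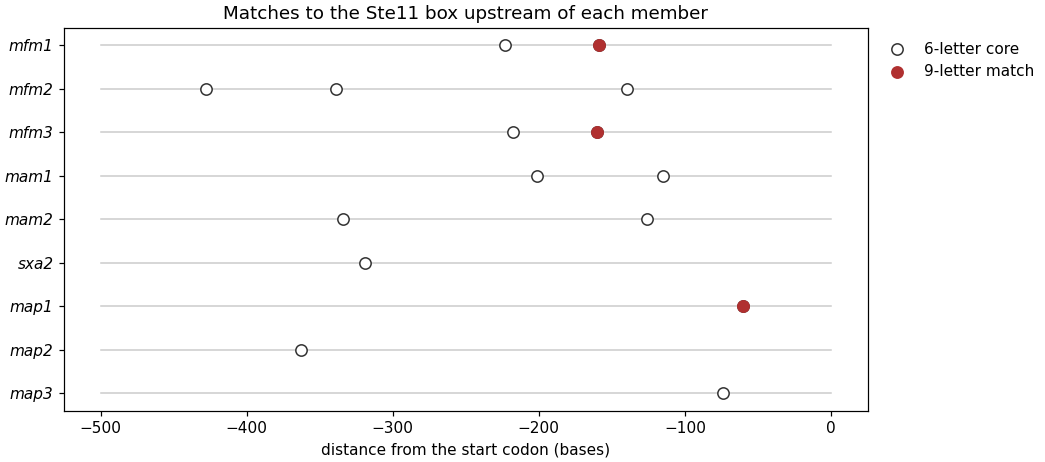
Position of each match in the 500 bases upstream of the start codon, as distance from the start codon in bases, for the 6-letter core (open circles) and the 9-letter match (red circles) on either strand. All 9 genes have at least 1 core match, the 9-letter match is at mfm1, mfm3 and map1, and the nearest matches of sxa2 and map2 are the most distant.

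Other genes of the pheromone pathway were described from lists chosen by function. The gene ste11 itself had 37.1 FPKM in wild-type and 9.81 FPKM in fas S.j. cells at 24°C, a change of -1.82, and 22.4 and 5.87 FPKM at 30°C, a change of -1.77. The meiosis gene mei2 had 49.6 and 2.86 FPKM at 24°C, a change of -3.71. Of the 13 genes for pheromone signalling and its regulators 7 fell and 1 rose by at least 0.8 at 24°C, against 2.08% and 4.19% of all genes, with a median of -0.86. Those that fell included ste4, which acts with the kinase Byr2, -1.79, the MAP kinase gene spk1, -1.54, rgs1, whose product restrains the G protein, -1.32, and gpa1, its alpha subunit, -0.86. The one that rose was ste6, an activator of Ras1, by 0.89, and the Ras gene ras1 had a change of 0.13. The kinase genes byr2 and byr1 had changes of 0.05 and -0.38.

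Of the genes for M-factor maturation and other M-cell genes, mam4, the carboxyl methyltransferase that finishes M-factor, fell from 68.2 to 24.0 FPKM at 24°C, a change of -1.47, and had a change of -0.79 at 30°C. The farnesyltransferase subunit genes cpp1 and cwp1 had changes of -0.12 and -0.35. The M-cell agglutinin gene mam3 had 14.7 FPKM in wild-type and 9.19 FPKM in fas S.j. cells, a change of -0.62. None of these but mam4 passed the limit. Of 3 other genes listed for P cells or for P-factor processing none did. The agglutinin gene map4 had 7.48 and 7.21 FPKM, and the protease gene sxa1 had 236 and 220 FPKM. The processing protease gene krp1, which was not taken as a P-cell marker, had 63.9 and 55.1 FPKM. The 5 genes for cell contact and fusion, fus1, cfr1, dni1, dni2 and prm1, ranged from -0.085 to 0.17. Among the mating genes described, the falls outside the signalling genes were thus those of the M-factor genes, mam1, mam4 and map1.

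The M-information genes, which would mark M cells, could not be read from these tables. The genes mat1-Mc and mat1-Mi, and their silent copies mat3-Mc and mat3-Mi, stand at 0 FPKM for either strain at 24°C. Every window of 50 bases in each of the 4 transcripts occurs at more than 1 place in the genome, so their reads have no single place, and a listed 0 is not evidence that they were not expressed. The P-information genes were not analysed here. The M-cell markers had unequal values in the fas S.j. library. It had 0.740 FPKM for mfm2 and 1.35 for mfm1, about 2 and 9 reads, but 240 for mfm3, 32.6 for mam2, 23.9 for sxa2, 9.59 for mam1 and 9.19 for mam3. In wild type the P-cell markers map1, map2, map3, map4 and sxa1 had values from 1.47 FPKM, for map2, to 236 FPKM, for sxa1. The part of mating type in these values was not tested.

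By Euclidean distance in log2(FPKM + 1) over the 2 libraries at 24°C, the genes most like mfm2 were mei2 at 1.52, fas2 at 1.78 and mmf2 at 1.82. No gene lay closer to mfm2, and fas2 is the replaced gene. The genes most like map1, the P-specific member with the largest change, were SPAC11D3.19 at 0.24, cda1 at 0.26 and rsc4 at 0.30. The distance rests on 1 library per strain and says nothing of shared control.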

How the data were processed

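Reads were aligned by the authors with TopHat in Galaxy, and the deposited FPKM values are the output of their Cuffdiff comparison of the strains, 1 library per value. Versions, library normalization and genome build are not given in the sources used here. The tables also hold the authors' fold changes, test statistics and p-values, which were not used. Of 5143 gene identifiers, 5106 matched ASM294v3, and all 2348 matched genes alone in their locus overlapped its coordinates.

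Changes used a pseudocount of 1, and medians and shares of genes a mean FPKM of at least 1. The limit of 0.8 is the fold limit of the study's methods, here on log2(FPKM + 1). Reads were estimated at 24°C from FPKM multiplied by the length in kilobases less 200 bases. For low-FPKM genes of 1 exon alone in their locus, 29 of 31 products in wild type and 20 of 22 in fas S.j. lay within 0.1 reads of a whole number, at 0.075 and 0.0955 per read. Depth at 30°C was not estimated. Lengths of members sharing a locus came from ASM294v3. Ratio intervals were exact binomial. The members, the lists and the fold limit were chosen with earlier results of these data known. The genes named were the members, the lists and the 3 genes most like mfm2 and map1. A near-identical copy was at least 90% identical in coding sequence. Alternatives were pseudocounts of 0.1 and 10, other minimum FPKM values, centring, limits of 0.5 and 1, and leaving out genes with copies or shared loci. The software was pandas 2.3.3 and numpy 2.4.6 under Python 3.11.15, with matplotlib 3.10.9 and scipy 1.17.1. Calls by the limit and the search for the read steps were run on simulated data without noise, which checks the code only.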

Additional observations from a re-analysis of the deposited data

How the results depend on the processing

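There is 1 library per condition, so no replicate could be left out. No paired analysis was possible because each group has 1 sample. A log2 value counted as moved past a difference of 0.25. The pseudocount mattered most: of 35 values of single members under an alternative, 15 moved and none changed direction, and all 15 did so with another pseudocount. With a pseudocount of 10 the M-specific median was -1.35 in place of -1.73, the P-specific median 0.096 in place of 0.40, and 0 members rose past 0.8 in place of 1. With a pseudocount of 0.1, 2 members rose past the limit, sxa2 and map3, as with a limit of 0.5. Among the 4 members alone in their locus 0 rose. Without mfm1 and mfm3, which are near-identical, the M-specific median was -1.04. Falls past the limit numbered 5, or 4 with a pseudocount of 10, among members alone in their locus or without mfm3, a choice made after seeing the data. The largest move under centring was 0.011. No P-specific member has a mean FPKM of 10, so that minimum gave no value for them. Depth limits mfm1 and mfm2 in fas S.j. and map2 in both strains, with at most 11 estimated reads each.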
